A study of Homo sapiens with 12 samples.

Results

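The comparison described here sets A498 cells that had received an siRNA against ELOVL5 (siELOVL5, replicates 1 to 3) against A498 cells that had received an siRNA against ELOVL2 (siELOVL2, replicates 1 to 3). These are 6 of the 12 libraries of the study. A498 is a line grown from a human kidney carcinoma, and siRNAs are short RNA duplexes that direct the breakdown of matching transcripts. The other 6 libraries, 3 that had received both siRNAs (the double knockdown) and 3 that had received a control siRNA, gave the spread between replicates together with the first 6 and are shown as context. All libraries carry the same batch label, and the labels call the replicates biological without saying how they were separated, so p-values measure the spread between these samples. The labels give neither the sequences nor the number of siRNAs per target, nor the time after transfection. What followed from lowering a target and what followed from any other action of that siRNA therefore cannot be told apart.

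ELOVL2 and ELOVL5 are elongases of the endoplasmic reticulum that add carbon units to polyunsaturated fatty acids. Both work in alternation with the desaturases FADS1 and FADS2. ELOVL5 handles shorter polyunsaturated chains, and ELOVL2 acts on longer ones, on the way to docosahexaenoic acid. Clear cell kidney carcinoma is known for stored lipid and for altered handling of fatty acids and iron.

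Values are the deposited normalized read counts, called normalized counts here, and the 3 values of a group stand in the order of replicates 1, 2 and 3. Differences are siELOVL5 minus siELOVL2 on the log2(normalized count + 1) scale, with the standard error (SE) of the fit, and folds are the same differences on a linear scale. A gene was called where limma gave an adjusted p under 0.05 over 18648 tested genes. Where a call is given as lost without named replicates, each of them was left out alone. Estimated depth before normalization was 7.78 to 10.7 M reads in siELOVL5 libraries, 9.05 to 9.47 M in siELOVL2 libraries, 6.70 to 8.80 M in double-knockdown libraries and 6.72 to 8.87 M in control libraries. Of the kidney markers, PAX8 held 511 to 677 and PAX2 held 85.5 to 139 normalized counts over the 12 libraries, while CA9, a marker of clear cell carcinoma, held only 2.08 to 29.1. Of 18 leukocyte markers, 16 stayed under 10 normalized counts in every library, with PTPRC at 2.83 or less and CD3E at 0 in all 12, while CD68 held 285 to 451 and ITGAM 16.1 to 48.8. Of 11 endothelial markers found, 9 stayed under 10, and TEK, at 2.17 to 22.8, was the highest. Of 12 fibroblast and pericyte markers, 5 stayed under 10, with LUM at 0 in all 12 libraries, and COL1A1, POSTN and RGS5 held 250 to 436, 123 to 218.5 and 77.4 to 113. List medians also depend on single libraries: of 16 lists with a median under 0.1 in size, 11 changed sign in a fit that left out 1 library.

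One library stood apart. siELOVL5 replicate 3 had a limma library weight of 0.228, against 0.491 to 2.62 in the other 11, and a mean correlation of 0.978 with its own group, against 0.980 to 0.985. The ATF4 and amino acid response list summed to 75948 normalized counts in it and to 30843 to 36541 in the other 11 libraries. The immediate early list summed to 34195 in it, against 10917 to 12744 in the others, and the mitosis list to 26366, against 31816 to 61687. The part that this library's state played in a difference was not tested, so values without it are given where they matter.

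The targets showed the labelled state in each library. ELOVL5 held 147, 141 and 156 normalized counts in siELOVL5 cells, 1791, 1994 and 2328 in siELOVL2 cells, 177, 172 and 187 in the double knockdown and 1939, 1954 and 2038 in control cells. All siELOVL5 and double-knockdown values lay far below all siELOVL2 and control values. The difference was -3.77 ± 0.09 (SE), 13.6-fold lower in siELOVL5 cells (adjusted p = 1.2e-10). ELOVL2 held 286, 235 and 165 in siELOVL5 cells, 27, 30.1 and 18.4 in siELOVL2 cells, 25.4, 26.5 and 19.9 in the double knockdown and 299, 299 and 211 in control cells. It was 8.72-fold higher in siELOVL5 than in siELOVL2 cells, at 3.12 ± 0.24 (adjusted p = 1.86e-05). Against control, ELOVL2 differed by -0.26 in siELOVL5 cells (adjusted p = 0.765) and ELOVL5 differed by 0.04 in siELOVL2 cells (adjusted p = 0.919). The siELOVL5 minus control and siELOVL2 minus control values share the control libraries here and below.

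Beyond the targets, cells given siELOVL5 had less transcript of heme oxygenase (HMOX1), NQO1, GCLM and TKT than cells given siELOVL2. They had more DUSP3, B4GALT1, cyclin G1, ceramide kinase, N-cadherin and BACH1 transcript. Most interferon-stimulated genes lay higher in siELOVL5 cells as well, with 7 of 48 called. In all, 562 of the 18648 tested genes were called (3.01%), 272 higher (1.46%) and 290 lower (1.56%) in siELOVL5 cells. Of all tested genes, 46.5% lay above 0 and 3201 had an unadjusted p under 0.05. Counts for gene lists below are to be read beside these shares, and no list was tested as a set. Called and at least 2-fold higher were 60 genes, and 28 were called and at least 2-fold lower. In each of the 562 called genes the siELOVL5 and siELOVL2 values did not overlap, so a lack of overlap adds nothing to a call. The median difference of all tested genes was -0.02, and with median-ratio rescaling of the libraries 58.8% of calls were higher, against 48.4% here. Of the 562 calls, 138 were also made in each of the 12 fits that left out 1 library, 74 of them higher. The count was most changed without siELOVL2 replicate 2 (165 calls), siELOVL2 replicate 3 (188), siELOVL5 replicate 1 (263) and siELOVL2 replicate 1 (270), and it also fell by more than 1.5 times without control replicate 2 (355) or double-knockdown replicate 2 (360). Without siELOVL5 replicate 3 it was 707, and 440 of those were among the 562. As these are bulk libraries, fewer cells in a state and less RNA per cell cannot be told apart.

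**Figure D1:**
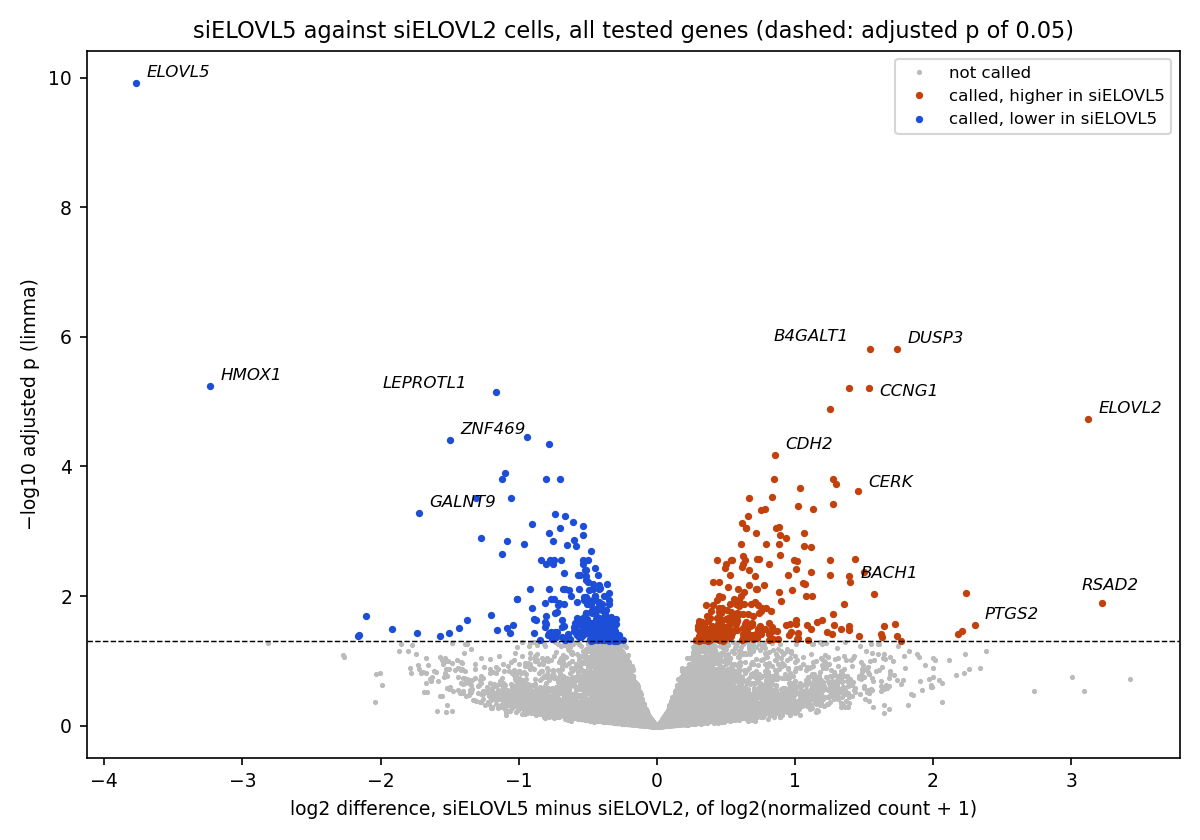
Each point is 1 of the 18648 tested genes, with the log2 difference (siELOVL5 minus siELOVL2) on the x axis and −log10 of limma's adjusted p on the y axis; orange points are the 272 genes called higher and blue points the 290 called lower in siELOVL5 cells. ELOVL5 (-3.77) and HMOX1 (-3.24) stand far to the left, ELOVL2 (3.12) and RSAD2 (3.22) far to the right, and B4GALT1, DUSP3 and CCNG1 have the smallest adjusted p among genes higher in siELOVL5 cells.

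HMOX1, the inducible heme oxygenase that splits heme into biliverdin, iron and carbon monoxide, had the largest difference after ELOVL5 among called genes at or above the median level. It held 1883, 1669 and 1441 normalized counts in siELOVL5 cells, 18624, 14723 and 13851 in siELOVL2 cells, 17859, 16379 and 9307 in the double knockdown and 3298, 2655 and 2508 in control cells. The siELOVL2 and double-knockdown libraries all lay above the control libraries, and the siELOVL5 libraries all lay below them. HMOX1 was 9.43-fold lower in siELOVL5 than in siELOVL2 cells, at -3.24 ± 0.21 (adjusted p = 5.79e-06). Against control, the difference was -0.76 in siELOVL5 cells (adjusted p = 0.269) and 2.48 in siELOVL2 cells (adjusted p = 9.52e-05).

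BACH1, a heme-binding repressor of HMOX1 and of other genes with antioxidant response elements, went the other way. Its values were 1515, 1643 and 3345 in siELOVL5 cells, 696, 768 and 853 in siELOVL2 cells, 796, 795 and 989.9 in the double knockdown and 1132, 1298 and 1289 in control cells. Replicate 3 was the highest of the siELOVL5 libraries. The difference was 1.40 ± 0.23 (adjusted p = 0.00607), and 1.04 without that library (adjusted p = 0.000446). The activator that competes with BACH1 for these elements is NRF2, encoded by NFE2L2. NFE2L2 held 2109, 2119 and 3329 in siELOVL5 cells and 2122, 1986 and 2248 in siELOVL2 cells. Its difference of 0.22, or -0.001 without siELOVL5 replicate 3, did not pass the test (adjusted p = 0.469 in all 12 libraries). Nor did that of KEAP1, the NRF2 inhibitor (-0.11, adjusted p = 0.507). These 2 genes, and others so marked below, fall outside the naming rule and were chosen after their values were seen.

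Of the 29 heme and iron genes tested, 5 were called lower and 2 higher in siELOVL5 cells, with a median of -0.21 against -0.02 for all tested genes, and 21 of the 29 lay below 0. The median was -0.12 without siELOVL5 replicate 3. SLC48A1, which carries heme out of lysosomes and endosomes, held 269, 294 and 297 normalized counts in siELOVL5 cells, 546, 658 and 647 in siELOVL2 cells, 555, 566 and 505 in the double knockdown and 285, 349 and 336 in control cells. Its siELOVL5 values lay within or just below the range of the control values, and it was 2.14-fold lower (adjusted p = 0.000127). ABCG2, an efflux pump that also exports porphyrins, held 360.4, 265 and 279 in siELOVL5 cells and 739, 587 and 589 in siELOVL2 cells, and was 2.12-fold lower (adjusted p = 0.00141). POR, the reductase that passes electrons to heme oxygenase and cytochromes P450, held 1696, 1888 and 2029 in siELOVL5 cells and 2929, 3209.6 and 3518 in siELOVL2 cells. All 3 siELOVL5 values were below the lowest siELOVL2 value, a 1.72-fold difference (adjusted p = 0.00105). These 3 calls and that of HMOX1 held in every fit that left out 1 library. SLC11A2, the divalent metal importer, and HEPH, a ferroxidase, were chosen after their values were seen. SLC11A2 was 1.21-fold lower (adjusted p = 0.046), a call lost without siELOVL5 replicates 1, 2 and 3, siELOVL2 replicates 1, 2 and 3, double-knockdown replicates 1 and 2 or control replicates 1, 2 and 3 (adjusted p 0.055 to 0.145). HEPH had 1, 2.17 and 3.67 in siELOVL5 cells and 0 in each siELOVL2 library, values too low for a fold; its call (adjusted p = 0.0424) was lost without siELOVL5 replicates 2 and 3, siELOVL2 replicates 1, 2 and 3, double-knockdown replicates 1 and 2 or control replicates 1, 2 and 3 (adjusted p 0.0565 to 0.134). The ferritin chains FTH1 and FTL, also chosen so, were at -0.30 and -0.27 and did not pass (adjusted p = 0.0707 and 0.176). The summed heme and iron list, in which HMOX1 and the ferritins weigh most, came to 51972, 54033 and 54892 normalized counts in siELOVL5 cells and 76751, 72543 and 76160 in siELOVL2 cells. It came to 78322, 77590 and 72405 in the double knockdown and 52375, 51858 and 54364 in control cells.

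Of 31 genes of the NRF2, glutathione and thioredoxin list, 6 were called lower and none higher in siELOVL5 cells, with a median of -0.25, and 26 lay below 0. The median was -0.14 without siELOVL5 replicate 1 or siELOVL2 replicate 3. HMOX1, FTH1 and FTL are in both lists, so the 2 lists are not independent. NQO1, a quinone reductase and common readout of NRF2, held 5968, 5968 and 6421 in siELOVL5 cells, 9816, 9711 and 11070 in siELOVL2 cells, 10213, 9892 and 10102 in the double knockdown and 7282, 6731 and 8146 in control cells. The siELOVL5 libraries were the lowest of the 12, and the difference from siELOVL2 cells was -0.74 ± 0.08 (adjusted p = 0.000541). GCLM, a subunit of the ligase that starts glutathione synthesis, held 3762, 3802 and 4542 in siELOVL5 cells, 5897, 6334 and 6731 in siELOVL2 cells, 6378, 6302 and 5748 in the double knockdown and 3628, 3754 and 3911 in control cells. It was 1.57-fold lower in siELOVL5 than in siELOVL2 cells (adjusted p = 0.00162). TKT, transketolase of the pentose phosphate pathway, held 6112, 6684 and 6705 in siELOVL5 cells and 9307, 10102 and 10299 in siELOVL2 cells, and was 1.52-fold lower (adjusted p = 0.00072). PGD, an NADPH-forming enzyme of the same pathway, chosen after its values were seen, held 3023, 3418 and 3105 in siELOVL5 cells and 3754, 4199.7 and 4814 in siELOVL2 cells and was 1.33-fold lower (adjusted p = 0.0376), a call lost without siELOVL5 replicates 1 and 3, siELOVL2 replicates 2 and 3, double-knockdown replicate 2 or control replicates 1, 2 and 3 (adjusted p 0.0519 to 0.152). Against control, NQO1 differed by -0.27 in siELOVL5 cells (adjusted p = 0.342) and 0.47 in siELOVL2 cells (adjusted p = 0.0183), and GCLM by 0.10 in siELOVL5 cells (adjusted p = 0.76) and 0.75 in siELOVL2 cells (adjusted p = 0.00103).

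**Figure D2:**
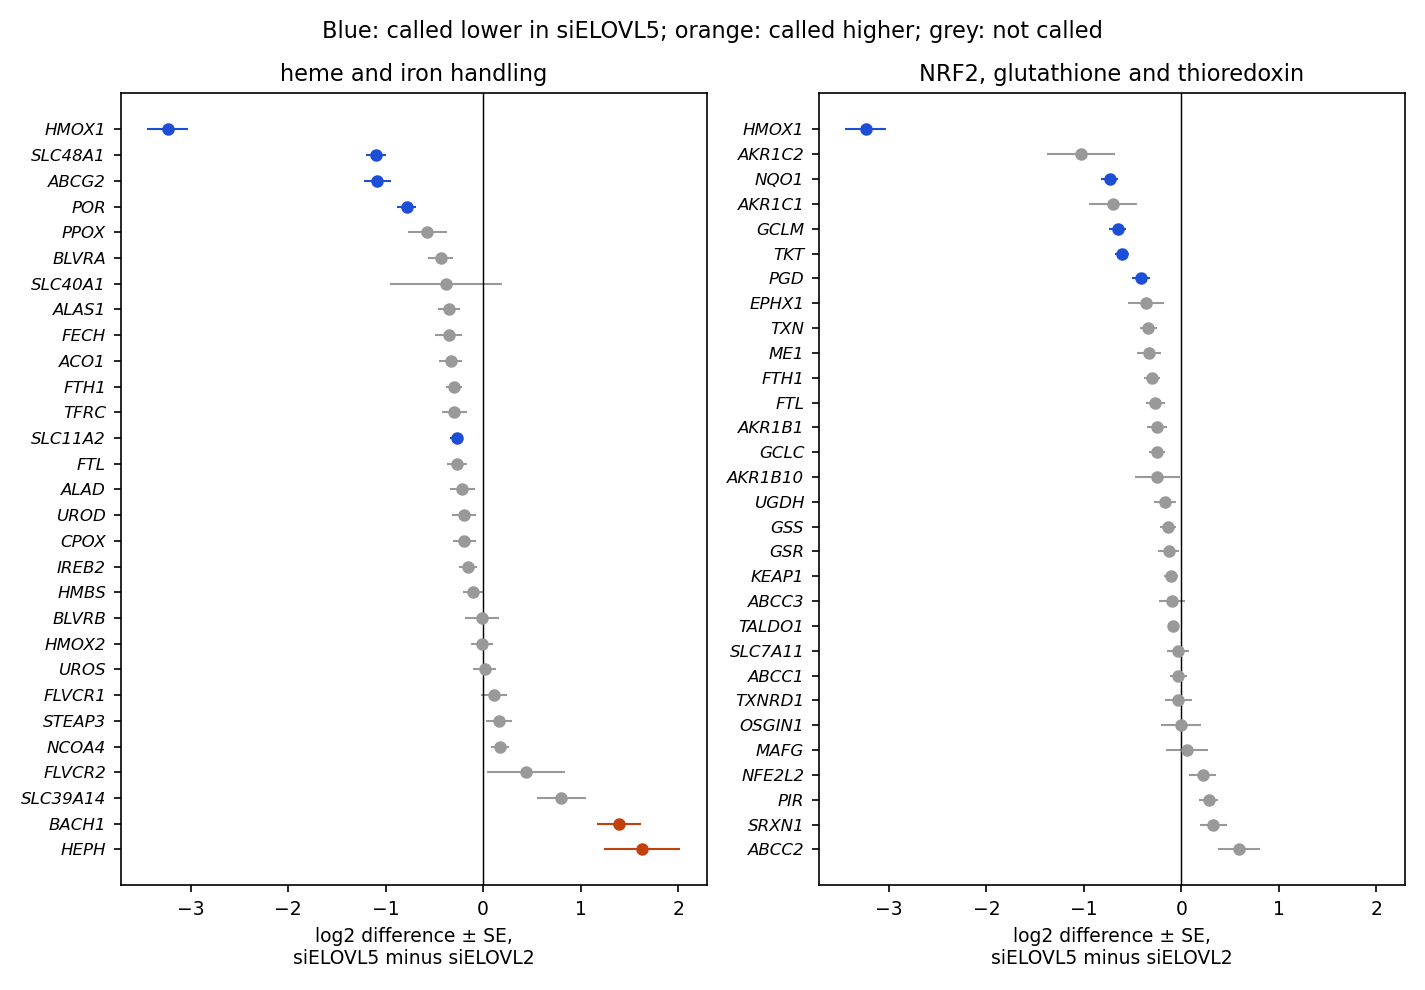
Log2 differences (siELOVL5 minus siELOVL2, x axis) with their SE as bars for the 29 heme and iron genes (left) and 30 of the 31 NRF2, glutathione and thioredoxin genes (right), each sorted by its difference, with called genes in blue (lower) or orange (higher). HMOX1 (-3.24) lies far from the rest, most other members sit between -1 and 0, and HEPH, at the bottom of the left panel, rests on values under 4 normalized counts.

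Of 19 ferroptosis genes, 2 were called, both lower in siELOVL5 cells: POR and GPX4, the peroxidase that reduces lipid hydroperoxides. GPX4 held 848, 796 and 744 in siELOVL5 cells and 1102, 989 and 949.8 in siELOVL2 cells. It was 1.27-fold lower (adjusted p = 0.0451), a call lost without siELOVL5 replicates 1, 2 and 3, siELOVL2 replicates 1, 2 and 3, double-knockdown replicates 1 and 2 or control replicates 1, 2 and 3 (adjusted p 0.0505 to 0.143). With 1 library left out, GPX4 differed from control by -0.01 to 0.10 in siELOVL5 cells and 0.32 to 0.45 in siELOVL2 cells. POR differed from control by -0.02 to 0.11 in siELOVL5 cells and 0.76 to 0.89 in siELOVL2 cells in the same fits. The list's median was -0.12, with -0.06 without siELOVL2 replicate 1, -0.07 without siELOVL5 replicate 2 and -0.19 without siELOVL2 replicate 3.

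Among genes higher in siELOVL5 cells, the smallest adjusted p went to DUSP3 and B4GALT1. DUSP3, a phosphatase of MAP kinases, held 1789.8, 1631 and 1693 normalized counts in siELOVL5 cells, 489, 472 and 576 in siELOVL2 cells, 494, 514 and 589 in the double knockdown and 1585, 1411 and 1329.6 in control cells. The 6 libraries that had received the ELOVL2 siRNA all lay far below the other 6. The difference was 1.74 ± 0.10, or 3.33-fold (adjusted p = 1.54e-06). B4GALT1, which adds galactose to glycans in the Golgi, held 4626, 4788 and 5110.4 in siELOVL5 cells, 1604, 1625 and 1757 in siELOVL2 cells, 1676, 1629 and 2036 in the double knockdown and 4251, 4275 and 4078 in control cells. It showed the same division of libraries, with a difference of 1.54 ± 0.09 (adjusted p = 1.54e-06). CCNG1, cyclin G1, a p53 target that binds a phosphatase, held 644, 686 and 645 in siELOVL5 cells, 192, 253 and 241 in siELOVL2 cells, 215, 238 and 229 in the double knockdown and 712, 708 and 638 in control cells. It was 2.89-fold higher in siELOVL5 cells (adjusted p = 6.09e-06). Against control, siELOVL5 cells differed by 0.24 in DUSP3, 0.20 in B4GALT1 and -0.06 in CCNG1, and none of these passed (adjusted p = 0.465, 0.49 and 0.896). siELOVL2 cells differed from control by -1.49 in DUSP3, -1.34 in B4GALT1 and -1.59 in CCNG1, and all 3 passed (adjusted p = 9.83e-06 each).

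**Figure D3:**
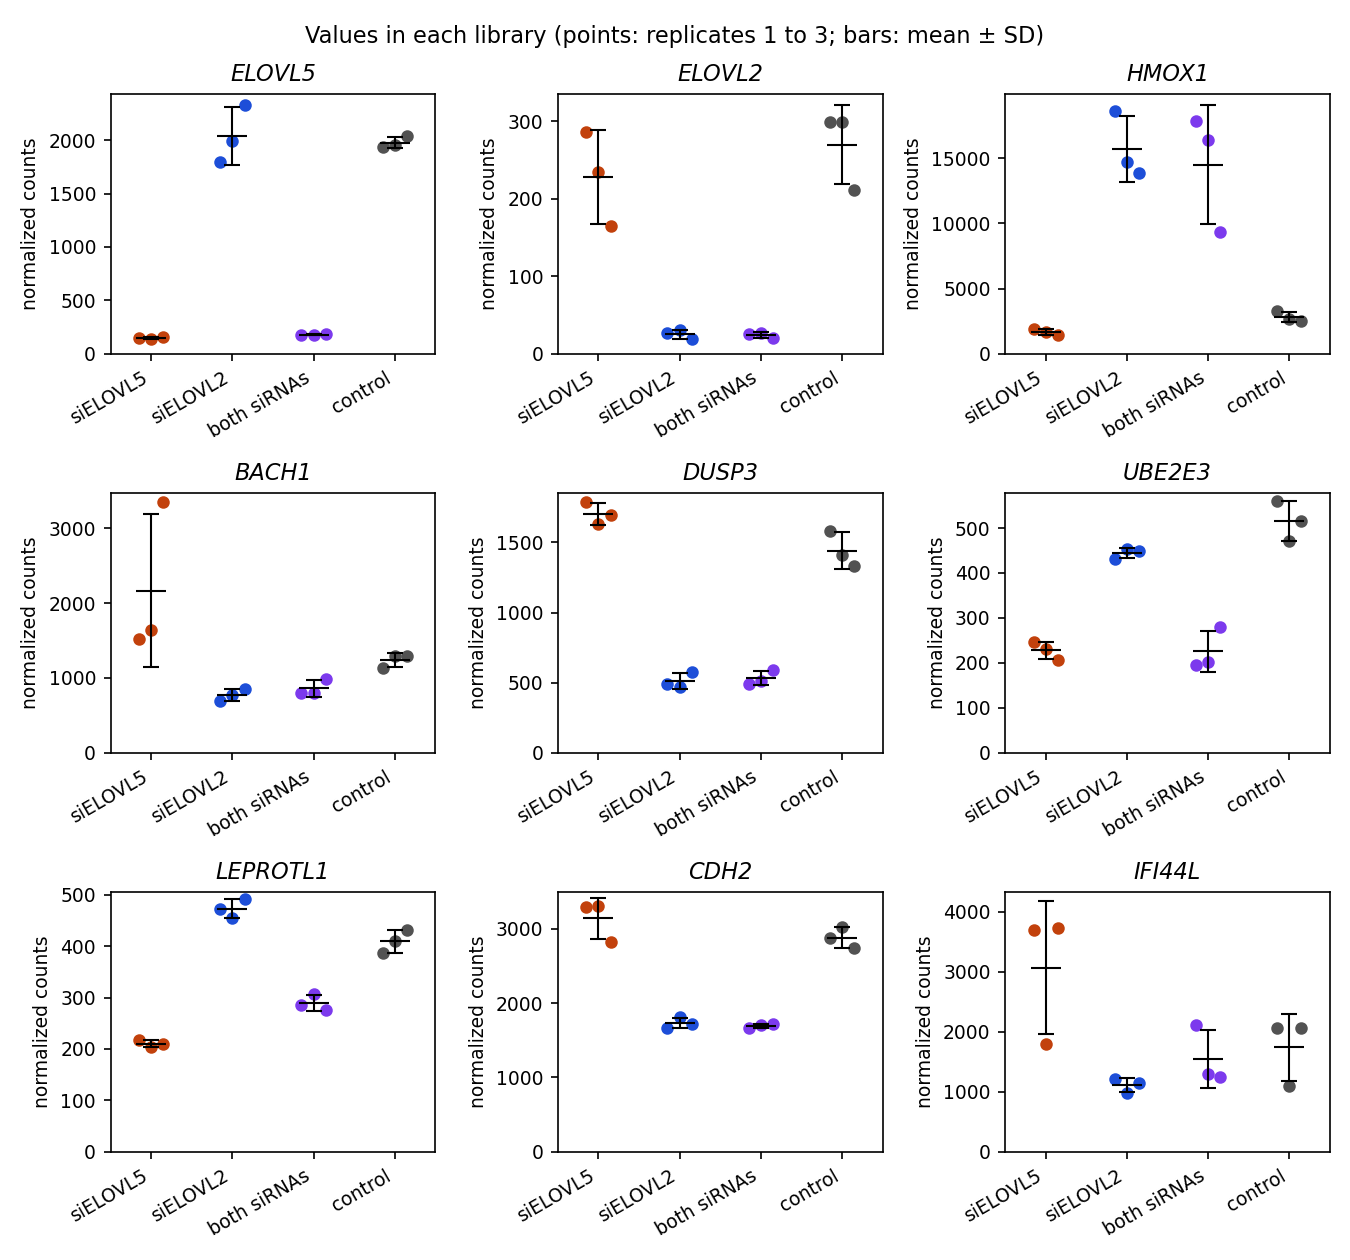
Normalized counts (y axis, from 0) of 9 genes in each of the 12 libraries, grouped on the x axis as siELOVL5, siELOVL2, both siRNAs and control, with points for replicates 1 to 3 and bars for the mean ± SD of 3. DUSP3 and CDH2 separate the libraries with and without the ELOVL2 siRNA, UBE2E3 separates those with and without the ELOVL5 siRNA, and in LEPROTL1 the double knockdown (277 to 306) lies between siELOVL5 (204 to 217) and siELOVL2 (455 to 492).

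Other genes at or above the median level with large higher calls included TXNIP, DLC1 and CREB5. TXNIP, an arrestin that binds thioredoxin and limits glucose uptake, held 702, 717 and 1735 in siELOVL5 cells and 349, 313 and 304 in siELOVL2 cells, a difference of 1.57 (adjusted p = 0.00933) that was 1.14 without siELOVL5 replicate 3 (adjusted p = 0.0011). DLC1, a GTPase-activating protein, held 696, 564 and 1078 in siELOVL5 cells and 286, 274 and 271 in siELOVL2 cells and was 2.7-fold higher (adjusted p = 0.00271). Both genes were highest in siELOVL5 replicate 3. CREB5, a bZIP transcription factor, held 548, 443 and 999 in siELOVL5 cells and 340.3, 217 and 154 in siELOVL2 cells. Its difference was 1.47 ± 0.35 (adjusted p = 0.041), a call lost without siELOVL5 replicates 1 and 3, siELOVL2 replicates 2 and 3, double-knockdown replicate 2 or control replicates 1 and 2 (adjusted p 0.0586 to 0.163).

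Among the named genes, UBE2E3, COMMD8, LEPROTL1, FBXL16 and SMAP2 were lower in siELOVL5 cells than in siELOVL2 cells and also lower than in control cells. UBE2E3, a ubiquitin-conjugating enzyme, held 246, 231 and 207 in siELOVL5 cells, 430.5, 453 and 449.5 in siELOVL2 cells, 196, 202 and 279 in the double knockdown and 559.9, 471 and 516 in control cells. No library with that siRNA reached the lowest of the others, and the difference from siELOVL2 cells was -0.96 ± 0.13 (adjusted p = 0.00159). COMMD8, a COMM domain protein that takes part in ubiquitin ligase control, held 133, 109.9 and 97.8 in siELOVL5 cells, 298, 259 and 268 in siELOVL2 cells, 135, 142 and 93.2 in the double knockdown and 235, 269.6 and 221 in control cells. It was 2.42-fold lower in siELOVL5 than in siELOVL2 cells (adjusted p = 0.00128). LEPROTL1, an endosomal membrane protein related to LEPROT, held 217, 204 and 209 in siELOVL5 cells, 472, 455 and 492 in siELOVL2 cells, 285, 306 and 277 in the double knockdown and 386, 410.5 and 431 in control cells. Its double-knockdown values lay between those of the single knockdowns, and it was 2.25-fold lower in siELOVL5 than in siELOVL2 cells (adjusted p = 7.15e-06). FBXL16, an F-box protein, held 89.4, 105 and 114 in siELOVL5 cells, 249.9, 233 and 287 in siELOVL2 cells, 154, 147 and 204 in the double knockdown and 221, 238 and 231 in control cells, and was 2.48-fold lower in siELOVL5 than in siELOVL2 cells (adjusted p = 0.000305). SMAP2, an Arf GTPase-activating protein of the trans-Golgi network, held 134, 134 and 139 in siELOVL5 cells and 271, 277 and 302 in siELOVL2 cells, and was 2.08-fold lower (adjusted p = 0.000305). All 5 calls held in each fit that left out 1 library.

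In siELOVL5 cells the difference from control was -1.17 for UBE2E3, -1.09 for COMMD8, -0.96 for LEPROTL1, -1.16 for FBXL16 and -0.81 for SMAP2. All 5 passed the test (adjusted p = 0.000178 in LEPROTL1 to 0.0242 in COMMD8). In siELOVL2 cells it was -0.21 for UBE2E3, 0.19 for COMMD8, 0.21 for LEPROTL1, 0.15 for FBXL16 and 0.24 for SMAP2, and none of these passed (adjusted p = 0.256 in LEPROTL1 to 0.692 in FBXL16). UBE2E3, COMMD8 and FBXL16 belong to the list of 30 ubiquitin conjugation and F-box genes, of which 4 were called, all lower, with a median of -0.05. The other was SKP1, the adaptor of SCF ubiquitin ligases, at 1451, 1552 and 1134 in siELOVL5 cells and 1898, 1833 and 1915 in siELOVL2 cells (difference -0.46, adjusted p = 0.0267), a call lost without siELOVL2 replicates 1, 2 and 3 (adjusted p 0.0768 to 0.1).

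GALNT9, ZNF469, ERMP1 and PIK3C2B were also called lower in siELOVL5 cells. GALNT9, which starts O-linked glycans, held 347, 361 and 413 in siELOVL5 cells, 1011, 1134 and 1626 in siELOVL2 cells, 841, 784 and 1041 in the double knockdown and 551, 562 and 879.8 in control cells, and was 3.3-fold lower in siELOVL5 than in siELOVL2 cells (adjusted p = 0.000527). ZNF469, a zinc finger protein mutated in brittle cornea syndrome, held 137, 169 and 139 in siELOVL5 cells, 409.7, 423 and 421 in siELOVL2 cells, 467, 421 and 345 in the double knockdown and 193, 176 and 160.5 in control cells. Its libraries with the ELOVL2 siRNA all lay above all those without it, and the difference was -1.50 ± 0.12 (adjusted p = 3.94e-05). ERMP1, a metallopeptidase of the endoplasmic reticulum, held 379, 395 and 296 in siELOVL5 cells and 694, 796 and 829 in siELOVL2 cells, a 2.17-fold difference (adjusted p = 0.000158). PIK3C2B, a class II phosphoinositide kinase, held 115, 167 and 179 in siELOVL5 cells and 255, 318 and 409 in siELOVL2 cells. Its difference was -1.08 (adjusted p = 0.0312), a call lost without siELOVL5 replicates 1 and 2, siELOVL2 replicates 2 and 3, double-knockdown replicate 2 or control replicate 2 (adjusted p 0.051 to 0.135).

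In lipid metabolism, some lists held calls other than the targets and others held none. These calls are to be read beside the 3.01% of all tested genes that were called. In the list of 17 elongases, desaturases and their partners, ELOVL5 and ELOVL2 were the called members, and the median was -0.25 (-0.39 without siELOVL2 replicate 1, and -0.09 without siELOVL5 replicate 1 or siELOVL2 replicate 3). The desaturases FADS1 and FADS2, chosen after their values were seen, varied more within groups than between them. Both rose from replicate 1 to replicate 3 in all 4 groups. At each replicate number FADS2 was lower in siELOVL5 than in siELOVL2 cells, and FADS1 was lower in replicates 1 and 2 but not 3. Pairing by number was not established. A fit with a block on the replicate number called 2 members of this list higher and 3 lower. FADS1 held 376, 507 and 921 in siELOVL5 cells and 481, 717 and 914 in siELOVL2 cells (difference -0.28, adjusted p = 0.717), and FADS2 held 1014, 1564 and 2196 in siELOVL5 cells and 1214, 2023 and 2384 in siELOVL2 cells (difference -0.25, adjusted p = 0.786). Sphingolipid genes gave 2 higher and 1 lower call of 34, with a median of -0.04. CERK, ceramide kinase, held 384, 411 and 293 in siELOVL5 cells, 148, 122 and 123 in siELOVL2 cells, 141, 107 and 106 in the double knockdown and 369, 391 and 335 in control cells. It was 2.74-fold higher in siELOVL5 than in siELOVL2 cells (adjusted p = 0.000239). The 2 subunits of serine palmitoyltransferase, the first enzyme of sphingolipid synthesis, went in opposite directions. SPTLC1 held 927, 950.1 and 981 in siELOVL5 cells and 1311, 1284 and 1393 in siELOVL2 cells (difference -0.48, adjusted p = 0.00201). SPTLC2 held 950.1, 1084 and 888 in siELOVL5 cells and 621, 729 and 696 in siELOVL2 cells (difference 0.51, adjusted p = 0.0374), a call lost without siELOVL5 replicates 1 and 2, siELOVL2 replicates 1, 2 and 3, double-knockdown replicate 2 or control replicates 2 and 3 (adjusted p 0.0519 to 0.122).

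Eicosanoid synthesis gave 1 higher and 1 lower call of 21 genes (median -0.13, with -0.20 without siELOVL2 replicate 1 and -0.08 without siELOVL2 replicate 2). PTGS2, the inducible cyclooxygenase, held 44.8, 31.3 and 156 in siELOVL5 cells and 18.4, 7.83 and 10.3 in siELOVL2 cells, with replicate 3 the highest siELOVL5 library. Its difference was 2.30 ± 0.49 (adjusted p = 0.0279) and 1.63 without that library (adjusted p = 0.0351), and the call was lost without siELOVL5 replicate 1 or siELOVL2 replicates 2 and 3 (adjusted p 0.051 to 0.128). PTGR1, which inactivates leukotrienes and prostaglandins, held 1347, 1514 and 1475 in siELOVL5 cells and 2034, 2162 and 2505 in siELOVL2 cells and was 1.54-fold lower (adjusted p = 0.00994), a call lost without siELOVL2 replicate 3 (adjusted p 0.0528). Of 31 fatty acid oxidation and PPAR genes, 26 lay below 0 and 4 above, with a list median of -0.15. An unadjusted p under 0.05 was found for 9, and the called member was PPARD, a nuclear receptor for fatty acids. It held 497.8, 503 and 496 in siELOVL5 cells and 365, 390.4 and 352 in siELOVL2 cells (difference 0.43, adjusted p = 0.022), a call lost without siELOVL5 replicates 1 and 2 or siELOVL2 replicates 1, 2 and 3 (adjusted p 0.0517 to 0.0964). AGPAT4, an acyltransferase of phosphatidic acid synthesis, was the called member of 21 phospholipid remodelling genes (list median -0.04). It held 430.4, 352 and 333 in siELOVL5 cells and 275, 269.6 and 269 in siELOVL2 cells (difference 0.44, adjusted p = 0.0347), a call lost without siELOVL5 replicates 1 and 2, siELOVL2 replicates 1, 2 and 3, double-knockdown replicate 2 or control replicate 2 (adjusted p 0.0528 to 0.129).

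Interferon-stimulated genes, which cells switch on after interferon or RNA sensing, lay higher in siELOVL5 cells. Of 48 tested, 47 lay above 0 and their median difference was 0.94, against -0.02 for all tested genes. The median was 0.61 without siELOVL5 replicate 3 and 0.62 with library weights. Of the 48, 7 were called, all higher, where 1.46% of all tested genes were called higher. The 7 were RSAD2, EPSTI1, IFI44L, XAF1, OAS3, IFI44 and TRIM25. A further 30 had an unadjusted p under 0.05 without being called. The list summed to 52380, 35038 and 66169 normalized counts in siELOVL5 cells and 30796, 27487 and 29367 in siELOVL2 cells. It summed to 41946, 31555 and 32048 in the double knockdown and 34378, 25075 and 36400 in control cells. siELOVL5 replicates 1 and 3 exceeded all other libraries, and replicate 2 lay within the range of the double-knockdown and control libraries. Replicate 2 had the lowest sum within each of the 4 groups, and its siELOVL5 sum was above its sums in the other groups. Pairing by number was not established.

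The number of these genes called depended on single libraries. It was 28 without siELOVL5 replicate 2, 0 without siELOVL2 replicate 2, 1 without siELOVL2 replicate 3 or siELOVL5 replicate 1, 2 without siELOVL2 replicate 1 or siELOVL5 replicate 3, 3 without double-knockdown replicate 2 and 4 without control replicate 1. A fit with no intensity trend in the variance called none of them, robust moderation called 1, no filter on low values 4, a filter at 10 called 14, library weights 18, and the 6 libraries alone none. IFI44L, a cytosolic antiviral protein, held 3687, 1789.8 and 3725 in siELOVL5 cells, 1208, 981 and 1141 in siELOVL2 cells, 2105, 1292 and 1249 in the double knockdown and 2063, 1098 and 2064 in control cells. Its siELOVL5 replicate 2 value lay among the double-knockdown and control values. The difference was 1.39 ± 0.30 (adjusted p = 0.0287), and the call was lost without siELOVL5 replicates 1 and 3 or siELOVL2 replicates 1, 2 and 3 (adjusted p 0.0661 to 0.127). RSAD2, viperin, held 282, 174 and 1479 in siELOVL5 cells, 51, 32.2 and 51.2 in siELOVL2 cells, 78, 57.6 and 35.2 in the double knockdown and 157, 96.7 and 158 in control cells. Replicate 3 was far above the other siELOVL5 libraries. The difference of 3.22 ± 0.59 (adjusted p = 0.0126) came to 2.31 without that library (adjusted p = 0.00353) and to 3.85, still called, without siELOVL5 replicate 2. The call was lost without siELOVL2 replicate 2 (adjusted p 0.0705).

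EPSTI1, an interferon-induced gene, held 242, 128 and 404 in siELOVL5 cells and 82.3, 59.3 and 67.2 in siELOVL2 cells (difference 1.74, adjusted p = 0.041). That call was lost without siELOVL5 replicates 1 and 3, siELOVL2 replicates 1, 2 and 3, double-knockdown replicate 2 or control replicates 1 and 3 (adjusted p 0.0518 to 0.156). XAF1, a pro-apoptotic partner of XIAP, held 1596, 834 and 1622 in siELOVL5 cells and 674, 482 and 366 in siELOVL2 cells (difference 1.39, adjusted p = 0.033), a call lost without siELOVL5 replicates 1 and 3, siELOVL2 replicates 2 and 3 or double-knockdown replicate 2 (adjusted p 0.0543 to 0.14). OAS3, which makes the oligoadenylates that activate RNase L, held 1400.2, 829.8 and 1332 in siELOVL5 cells and 593, 515 and 527 in siELOVL2 cells (difference 1.09, adjusted p = 0.0279), a call lost without siELOVL5 replicates 1 and 3 or siELOVL2 replicates 1, 2 and 3 (adjusted p 0.0614 to 0.117). In all 3 genes siELOVL5 replicate 2 was the lowest of its group. IFI44, a relative of IFI44L, and TRIM25, the ubiquitin ligase of the RIG-I pathway, were chosen after their values were seen. IFI44 held 1122, 702 and 1074 in siELOVL5 cells and 484, 416 and 498.3 in siELOVL2 cells (difference 1.02, adjusted p = 0.0451), a call lost without siELOVL5 replicates 1 and 3, siELOVL2 replicates 1, 2 and 3, double-knockdown replicates 1 and 2 or control replicate 1 (adjusted p 0.0501 to 0.17). TRIM25 held 1506, 1121 and 2343 in siELOVL5 cells and 911, 844 and 839 in siELOVL2 cells (difference 0.87, adjusted p = 0.0352), a call lost without siELOVL5 replicate 1, siELOVL2 replicates 1, 2 and 3, double-knockdown replicates 1 and 2 or control replicate 1 (adjusted p 0.0501 to 0.13). Against control, IFI44L differed by 0.80 in siELOVL5 cells (adjusted p = 0.43) and -0.60 in siELOVL2 cells (adjusted p = 0.417), so neither single knockdown passed on its own.

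**Figure D4:**
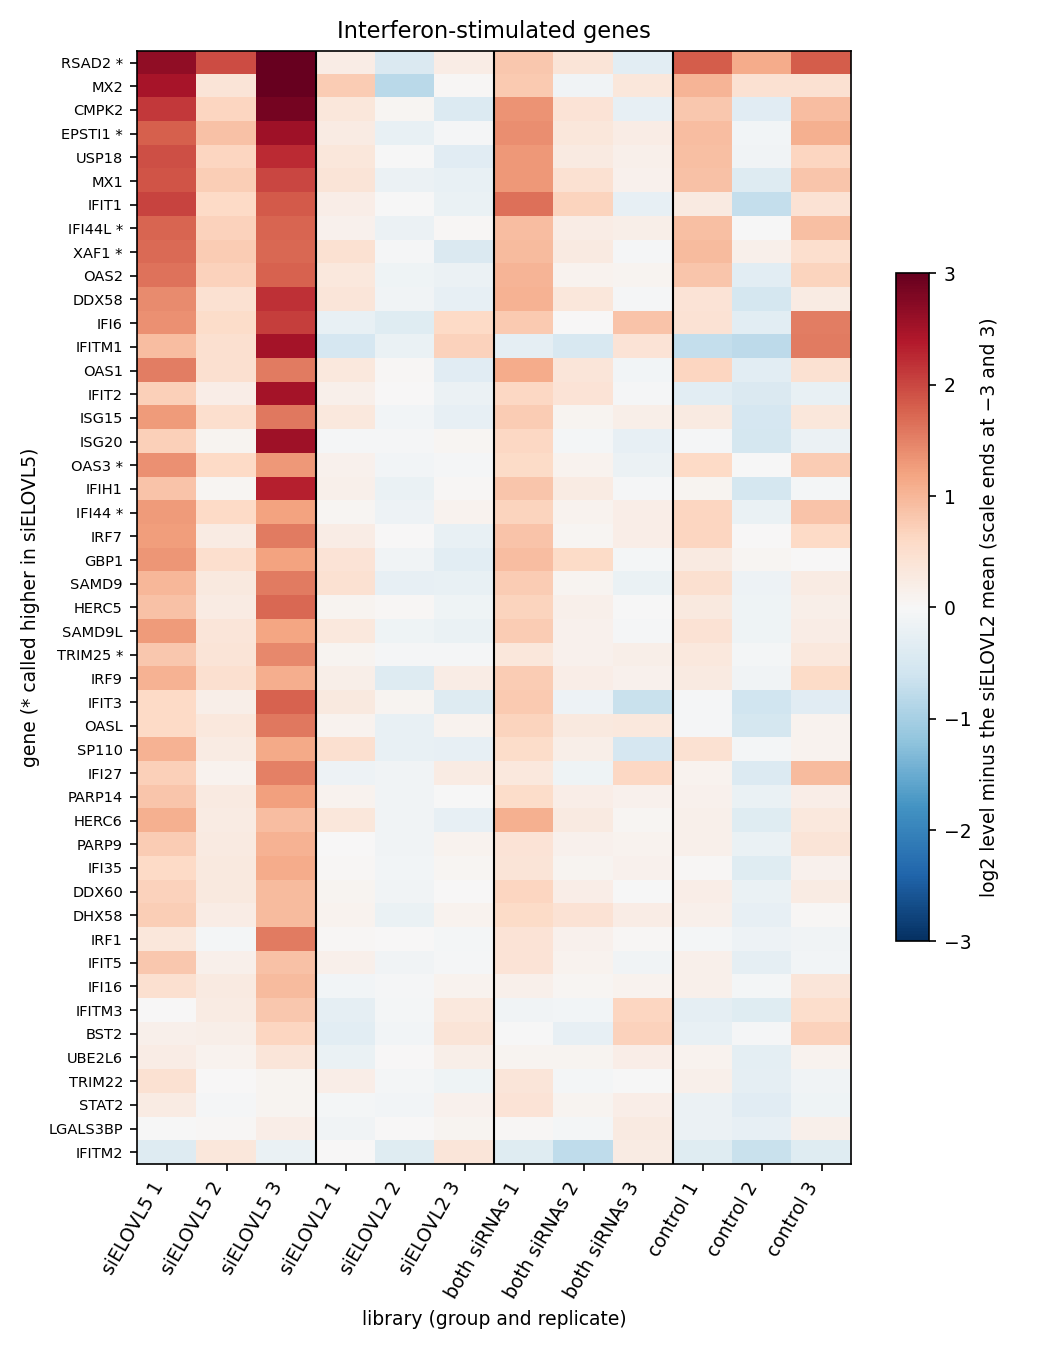
Rows are 47 of the 48 interferon-stimulated genes, sorted by their difference, and columns the 12 libraries in the order siELOVL5, siELOVL2, both siRNAs and control; colour is the log2 level minus the mean of the siELOVL2 libraries, red above and blue below, and an asterisk marks the 7 called genes. siELOVL5 replicates 1 and 3 are red over most rows, siELOVL5 replicate 2 is paler, and double-knockdown replicate 1 has the highest summed level outside the siELOVL5 group (41946 normalized counts).

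Many promoters of interferon-stimulated genes hold a short shared sequence, shown here as background. The core of the interferon-stimulated response element, searched as GAAANNGAAA on both strands in the 250 bases before each start site of the RefSeq promoter table (GRCh38.p14), was present in 24 of the 37 list genes found there (64.9%), against 3.71% of all 27305 genes in the table. Of the 7 called genes, 5 held it, and XAF1 and TRIM25 had no match in that window. The list was made up of interferon-stimulated genes, so its share says nothing about siELOVL5 against siELOVL2 cells. A match is a description of the letters and not a shown binding site. The windows below run 5′ to 3′ on the gene's strand, with up to 25 bases on either side and the match in capitals. In RSAD2 and IFI44 the match reads on the opposite strand.
RSAD2, chr2:6877607-6877666, plus strand: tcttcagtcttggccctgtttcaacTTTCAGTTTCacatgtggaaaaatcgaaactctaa
EPSTI1, chr13:42992257-42992316, minus strand: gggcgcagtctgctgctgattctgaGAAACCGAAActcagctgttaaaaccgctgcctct
IFI44L, chr1:78620350-78620409, plus strand: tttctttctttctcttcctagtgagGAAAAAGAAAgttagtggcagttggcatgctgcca
OAS3, chr12:112938437-112938473, plus strand: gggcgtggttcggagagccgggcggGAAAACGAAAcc
IFI44, chr1:78649746-78649788, plus strand: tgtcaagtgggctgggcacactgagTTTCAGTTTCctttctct
The match begins 145 bases before the start site in RSAD2, 50 in EPSTI1, 73 in IFI44L, 12 in OAS3 and 18 in IFI44. IFI44L and OAS3 hold 2 matches each, and the one nearest the start is shown. RSAD2 differed most between the groups (3.22) and IFI44 least of these 5 (1.02).

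Upstream of these genes, 2 of 25 interferon sensors, receptors and ligands were called, both higher in siELOVL5 cells. The list median was 0.14, with 0.06 without siELOVL5 replicate 3, 0.31 without siELOVL5 replicate 2 and 0.22 without siELOVL2 replicate 2. MYD88, the adaptor of Toll-like and interleukin receptors, held 337, 306 and 366 in siELOVL5 cells, 193, 189.5 and 228 in siELOVL2 cells, 261, 255 and 255 in the double knockdown and 241, 230.2 and 265 in control cells. Every siELOVL5 library lay above every other library, and the difference was 0.72 ± 0.10 (adjusted p = 0.00269). SOCS3, an inhibitor of JAK signalling, held 565, 588 and 809 in siELOVL5 cells and 440.1, 453 and 458 in siELOVL2 cells (difference 0.52, adjusted p = 0.0331), a call lost without siELOVL2 replicates 1, 2 and 3, double-knockdown replicate 2 or control replicates 1 and 2 (adjusted p 0.0505 to 0.121). IFNB1 and IFNL1, interferons chosen after their values were seen, reached at most 2.92 and 2.75 normalized counts in the 12 libraries, and IFNL2 and IFNL3 at most 1. TLR3, the sensor of double-stranded RNA in endosomes, was chosen in the same way. It held 528, 481 and 575 in siELOVL5 cells and 478, 539.8 and 497 in siELOVL2 cells and did not pass (adjusted p = 0.808). In the sensor list, 5 genes were called without siELOVL5 replicate 2.

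Of 29 NF-kappaB targets and cytokines, 2 were called higher. The list median was 0.63, with 0.34 without siELOVL5 replicate 3 and 0.97 without siELOVL5 replicate 2. VCAM1, an adhesion molecule for leukocytes, held 2067, 1826 and 2046 in siELOVL5 cells, 1182, 1115 and 1034 in siELOVL2 cells, 1522, 1342 and 1227 in the double knockdown and 1558, 1625 and 1568 in control cells. Again every siELOVL5 library lay above every other one, at 0.83 ± 0.09 from siELOVL2 cells (adjusted p = 0.000291). CCL2, a monocyte chemokine, held 371, 239 and 544 in siELOVL5 cells and 199, 115 and 129.9 in siELOVL2 cells (difference 1.33, adjusted p = 0.0324), a call lost without siELOVL5 replicates 1 and 3, siELOVL2 replicates 2 and 3, double-knockdown replicate 2 or control replicate 2 (adjusted p 0.0542 to 0.142). The neutrophil chemokine listed as IL8, chosen after its values were seen, ranged from 213 to 2853 within siELOVL5 cells and from 23.3 to 464 within siELOVL2 cells. With that spread its difference of 2.73 did not pass (adjusted p = 0.294).

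Of 33 ATF4 and amino acid response genes, 2 were called higher, with a median of 0.53. It was 0.18 without siELOVL5 replicate 3, where 2 were called higher and 2 lower, and 0.21 with library weights. SLC7A5, the large neutral amino acid transporter, held 8547, 8512 and 12706 in siELOVL5 cells, 5480.2, 5712 and 5897 in siELOVL2 cells, 6302, 7139 and 6731 in the double knockdown and 6302, 6705 and 6378 in control cells. The siELOVL5 libraries exceeded all others, and the difference was 0.77 (adjusted p = 0.00664) and 0.58 without replicate 3 (adjusted p = 0.00057). PHGDH, the first enzyme of serine synthesis, held 634, 603 and 728 in siELOVL5 cells and 393, 463 and 472 in siELOVL2 cells (difference 0.57, adjusted p = 0.0219), a call lost without siELOVL5 replicate 1 or siELOVL2 replicates 1 and 2 (adjusted p 0.0523 to 0.0769). ASNS, asparagine synthetase, and DDIT3, the factor CHOP, were chosen after their values were seen to show the weight of 1 library. ASNS held 424, 449.8 and 1607 in siELOVL5 cells and 427, 367 and 374 in siELOVL2 cells, and its difference of 0.79 (adjusted p = 0.285) was 0.17 without replicate 3 (adjusted p = 0.462). DDIT3 held 41.9, 38.8 and 299 in siELOVL5 cells and 40.9, 49.5 and 20.3 in siELOVL2 cells, and neither gene was called. Without that library 2 list members were called higher and 2 lower, and without siELOVL5 replicate 2 there were 4, all higher.

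Matrix and adhesion genes gave 3 higher calls and no lower one among 32, with a median of 0.21. The 8 tested fibroblast and pericyte markers summed to 766, 781 and 801.5 normalized counts in siELOVL5 cells and 627, 703 and 598 in siELOVL2 cells, without overlap. Their part in the matrix calls was not tested. CDH2, N-cadherin, held 3293, 3309 and 2825 in siELOVL5 cells, 1673, 1809.5 and 1718 in siELOVL2 cells, 1669, 1700.4 and 1726 in the double knockdown and 2877, 3026 and 2749 in control cells. All libraries with the ELOVL2 siRNA lay below all those without it, and the difference was 0.85 ± 0.08 (adjusted p = 6.61e-05). THBS1, thrombospondin, held 1862, 1484 and 1245 in siELOVL5 cells, 906, 706 and 594 in siELOVL2 cells, 902, 894 and 743 in the double knockdown and 1588, 1406 and 1161 in control cells, with the same division, and was 2.08-fold higher (adjusted p = 0.00632). COL5A1, a fibrillar collagen chain, held 14193, 16379 and 13311 in siELOVL5 cells and 10557, 11988 and 10928 in siELOVL2 cells (difference 0.39, adjusted p = 0.041), a call lost without siELOVL5 replicates 1 and 2, siELOVL2 replicates 1, 2 and 3, double-knockdown replicates 1 and 2 or control replicates 1, 2 and 3 (adjusted p 0.0533 to 0.145). Of 33 TGF-beta genes, 2 were called higher (median 0.13). SKIL, a repressor that binds SMADs, held 2174, 2046 and 2534 in siELOVL5 cells and 1420.1, 1409.8 and 1459.6 in siELOVL2 cells, a 1.57-fold difference (adjusted p = 0.000905). LTBP1, which holds latent TGF-beta in the matrix, held 336, 319.6 and 349 in siELOVL5 cells and 216, 241 and 209 in siELOVL2 cells (difference 0.59, adjusted p = 0.0192), a call lost without siELOVL5 replicate 1 or siELOVL2 replicates 1 and 3 (adjusted p 0.057 to 0.0895). Without siELOVL5 replicate 3, 4 TGF-beta genes were called.

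In the hypoxia list, 2 of 34 genes were called higher. The median was 0.11, with -0.01 without siELOVL5 replicate 3, 0.05 without siELOVL2 replicate 1, 0.17 without siELOVL2 replicate 3 and 0.27 without siELOVL5 replicate 1. EGLN1, the oxygen-sensing hydroxylase that marks HIF for removal, held 1336, 1306 and 1248 in siELOVL5 cells, 738, 854 and 878 in siELOVL2 cells, 756, 785 and 726 in the double knockdown and 1223, 1267 and 1289.7 in control cells. Libraries with the ELOVL2 siRNA all lay below the others, and the difference was 0.66 ± 0.08 (adjusted p = 0.000588). PFKFB4, a regulator of glycolysis, held 129, 118 and 139 in siELOVL5 cells and 83.5, 83.2 and 79.3 in siELOVL2 cells (difference 0.64, adjusted p = 0.032), a call lost without siELOVL5 replicates 1 and 3 or siELOVL2 replicates 1, 2 and 3 (adjusted p 0.0576 to 0.118). Of 26 insulin, FOXO and PI3K-AKT genes, TXNIP, PIK3R3 and CITED2 were called higher (median -0.02). PIK3R3, a regulatory subunit of PI3-kinase, held 159, 159 and 134 in siELOVL5 cells and 91.8, 97.8 and 84.7 in siELOVL2 cells (adjusted p = 0.0124), a call lost without siELOVL5 replicate 1 or siELOVL2 replicate 3 (adjusted p 0.051 to 0.0645). CITED2, a transcription cofactor, held 621, 798 and 846 in siELOVL5 cells and 522, 499 and 535 in siELOVL2 cells (adjusted p = 0.0424), a call lost without siELOVL5 replicates 2 and 3, siELOVL2 replicates 1, 2 and 3, double-knockdown replicate 1 or control replicates 1, 2 and 3 (adjusted p 0.0548 to 0.159). Of 29 immediate early genes, the factors SRF and FOSL2 were called higher. The median was 0.39, with 0.11 without siELOVL5 replicate 3 and 0.14 with library weights. SRF held 443, 378 and 393 in siELOVL5 cells and 303, 277 and 293 in siELOVL2 cells (adjusted p = 0.015), a call lost without siELOVL5 replicate 1 or siELOVL2 replicates 2 and 3 (adjusted p 0.0574 to 0.0859). FOSL2 held 4146, 4058 and 5056 in siELOVL5 cells and 3504, 3361 and 3026 in siELOVL2 cells (adjusted p = 0.04), a call lost without siELOVL5 replicates 1 and 3, siELOVL2 replicates 1, 2 and 3, double-knockdown replicates 1 and 2 or control replicates 1, 2 and 3 (adjusted p 0.0511 to 0.163). Without siELOVL5 replicate 3, 3 insulin and FOXO genes were called higher and 2 lower.

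Lysosomal genes gave 4 lower calls and no higher one among 39, with a median of -0.09. CTSL, the protease cathepsin L, held 2721, 2565 and 2586 in siELOVL5 cells, 4251, 3815 and 3891 in siELOVL2 cells, 4053, 3732 and 3361 in the double knockdown and 3149, 2986 and 3174 in control cells. The siELOVL5 libraries were the lowest of the 12, and the difference from siELOVL2 cells was -0.60 ± 0.08 (adjusted p = 0.00135). PPT1, which removes fatty acyl groups from proteins, held 990.5, 919.5 and 795 in siELOVL5 cells and 1292, 1292 and 1265 in siELOVL2 cells, and was 1.43-fold lower (adjusted p = 0.00556). NAGLU, an enzyme of heparan sulfate breakdown, held 94.1, 118 and 73.9 in siELOVL5 cells and 152, 186 and 159 in siELOVL2 cells (difference -0.81, adjusted p = 0.0249), a call lost without siELOVL5 replicate 1 or siELOVL2 replicates 1, 2 and 3 (adjusted p 0.0516 to 0.121). NEU1, lysosomal sialidase, held 529, 555 and 703 in siELOVL5 cells, 864, 809 and 803 in siELOVL2 cells, 899, 813 and 855 in the double knockdown and 457, 462 and 508 in control cells (difference -0.48, adjusted p = 0.0264), a call lost without siELOVL5 replicates 1 and 2 or siELOVL2 replicates 1, 2 and 3 (adjusted p 0.0706 to 0.0901). Of 40 nuclear-encoded respiratory chain genes, 37 lay below 0 (median -0.16), where 46.5% of all tested genes lay above 0. Only 1 of the 40, NDUFA2 of complex I, was called (lower), against 3.01% of all tested genes. NDUFA2 held 129.9, 139 and 122 in siELOVL5 cells and 172, 176 and 171 in siELOVL2 cells (difference -0.41, adjusted p = 0.0462), a call lost without siELOVL5 replicates 1, 2 and 3, siELOVL2 replicates 1, 2 and 3, double-knockdown replicates 1 and 2 or control replicates 1, 2 and 3 (adjusted p 0.0572 to 0.163).

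Growth and death genes gave scattered calls, where 3.01% of all tested genes were called. Of 30 p53 targets, CCNG1 was called higher and 3 were called lower (median -0.08). FDXR, ferredoxin reductase of mitochondria, held 411, 428 and 336 in siELOVL5 cells and 596, 627 and 546 in siELOVL2 cells (adjusted p = 0.0256), a call lost without siELOVL5 replicate 1 or siELOVL2 replicates 1, 2 and 3 (adjusted p 0.0523 to 0.119). ZMAT3, an RNA-binding protein, held 1006, 1195 and 892 in siELOVL5 cells and 1352, 1547 and 1495 in siELOVL2 cells (adjusted p = 0.0301), a call lost without siELOVL5 replicates 1 and 3, siELOVL2 replicates 1, 2 and 3 or double-knockdown replicate 2 (adjusted p 0.0512 to 0.133). SPATA18, a mitochondrial quality control protein, held 275, 249 and 276 in siELOVL5 cells and 334, 349 and 403 in siELOVL2 cells (adjusted p = 0.0457), a call lost without siELOVL5 replicates 1 and 2, siELOVL2 replicates 1, 2 and 3, double-knockdown replicates 1 and 2 or control replicates 1, 2 and 3 (adjusted p 0.053 to 0.182). BCL2L11, the death-promoting protein BIM, was the called member of 18 BCL2 family genes (median 0.06), at 620.1, 680.1 and 687 in siELOVL5 cells and 757, 939 and 976 in siELOVL2 cells (adjusted p = 0.0365). That call was lost without siELOVL5 replicates 1 and 2, siELOVL2 replicates 2 and 3, double-knockdown replicate 2 or control replicates 1, 2 and 3 (adjusted p 0.0522 to 0.156). CCNE1, cyclin E, was the called member of 45 replication and G1/S genes (median -0.08), at 220.2, 231 and 208 in siELOVL5 cells and 309, 291 and 342 in siELOVL2 cells (adjusted p = 0.0185). That call was lost without siELOVL5 replicate 1 or siELOVL2 replicates 1 and 3 (adjusted p 0.0526 to 0.0921), while leaving out siELOVL5 replicate 3 gave 3 lower calls in the list, and leaving out double-knockdown replicate 2 or 3 gave 2.

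Of 16 genes of the RNA interference machinery through which siRNAs act, 2 were called lower in siELOVL5 cells (median 0.00). DICER1, which cuts double-stranded RNA, held 941, 862 and 689.9 in siELOVL5 cells, 1233, 1159 and 1090.3 in siELOVL2 cells, 822, 779.6 and 715 in the double knockdown and 1236, 1323 and 1181 in control cells. Libraries with the ELOVL5 siRNA were all below those without it, and the difference from siELOVL2 cells was -0.49 (adjusted p = 0.0288), a call lost without siELOVL2 replicates 1, 2 and 3 (adjusted p 0.0692 to 0.111). DROSHA, the nuclear microRNA processor, held 988, 988 and 893 in siELOVL5 cells and 1115, 1214 and 1219 in siELOVL2 cells (adjusted p = 0.0355), a call lost without siELOVL5 replicates 1 and 2, siELOVL2 replicates 1, 2 and 3, double-knockdown replicates 1 and 2 or control replicates 1, 2 and 3 (adjusted p 0.0501 to 0.148). AGO2, the slicing Argonaute, chosen after its values were seen, held 665, 591 and 858 in siELOVL5 cells and 700.3, 608 and 535 in siELOVL2 cells and did not pass (adjusted p = 0.514).

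**Figure D5:**
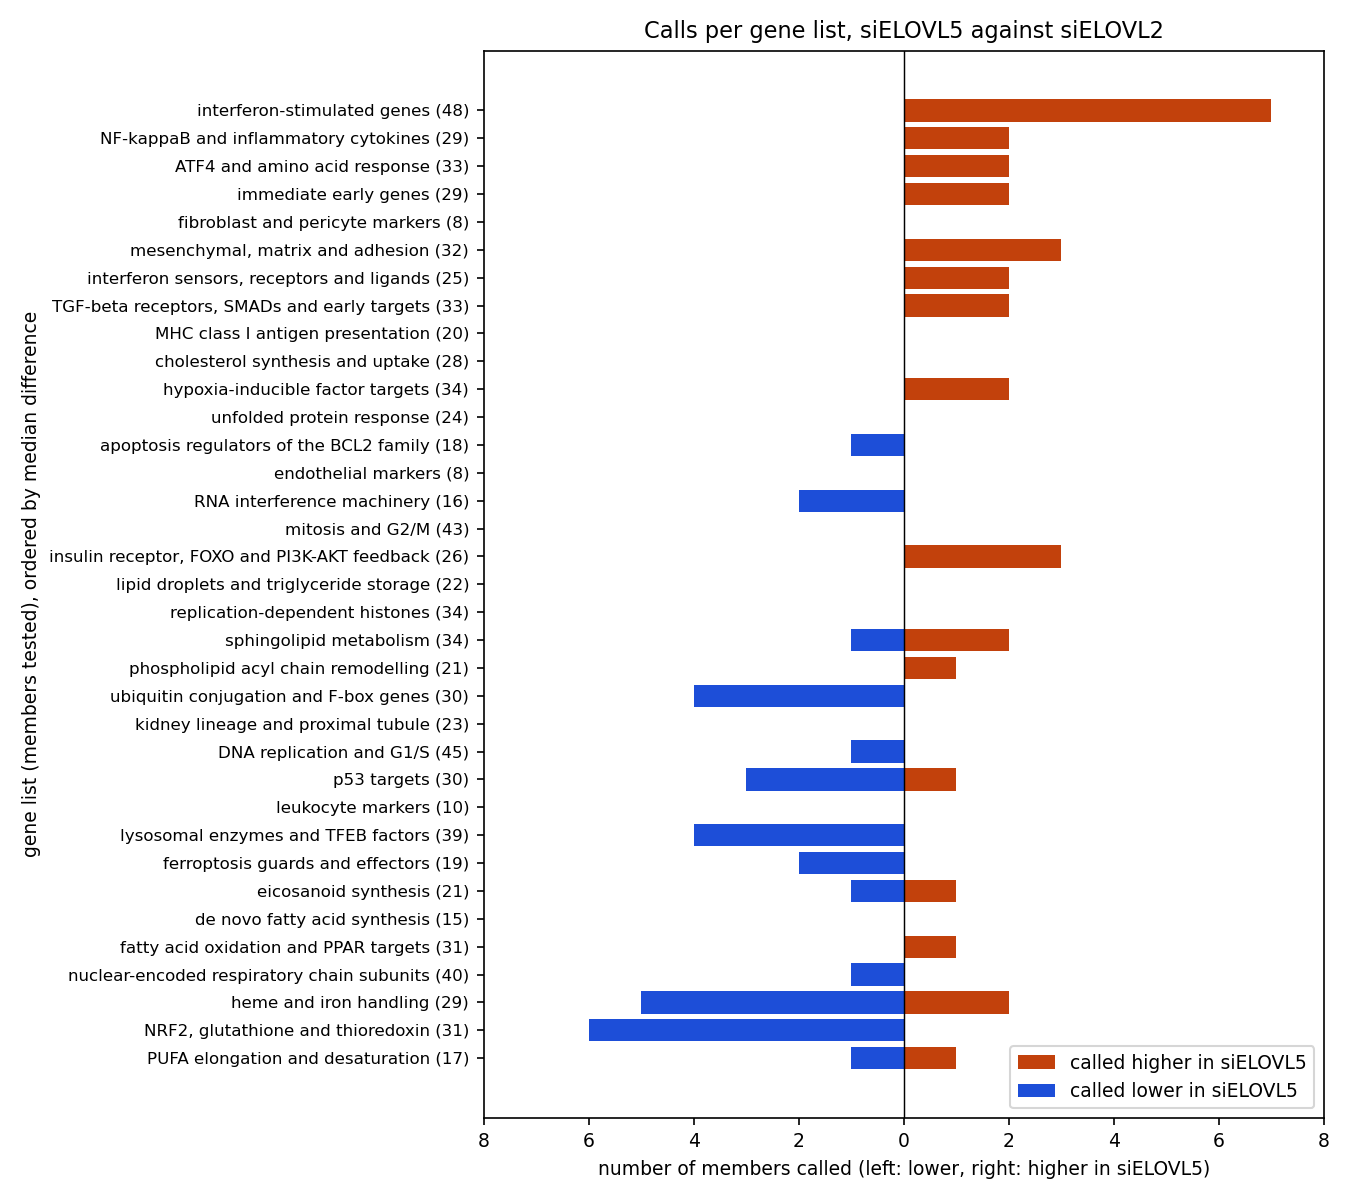
For each of the 35 gene lists, bars give the number of members called higher (orange, right) and lower (blue, left) in siELOVL5 cells, with the number tested in brackets and the lists ordered from the highest median difference at the top to the lowest at the bottom. Interferon-stimulated genes have 7 higher calls and the NRF2 list 6 lower ones, and both calls of the elongase list are the siRNA targets themselves.

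The double knockdown and the control share no library with the siELOVL5 to siELOVL2 comparison, although all 4 groups share the estimate of spread. Double knockdown against control called 825 genes (4.42%), and 218 genes were called in both comparisons, which is 38.8% of the 562 and 26.4% of the 825. Of the 272 genes higher in siELOVL5 than in siELOVL2 cells, 116 were called there, 115 of them lower in the double knockdown than in control and 1 higher. Of the 290 lower ones, 102 were called there, 85 higher in the double knockdown and 17 lower. HMOX1 was 2.32 there (adjusted p = 0.000114), ZNF469 1.21 (adjusted p = 0.000187), DUSP3 -1.44 (adjusted p = 8.97e-06) and CDH2 -0.76 (adjusted p = 0.000177). These 4 had the sign of the siELOVL2 minus control value. UBE2E3 was -1.21 (adjusted p = 0.000243) and COMMD8 -0.98 (adjusted p = 0.00507), with the sign of the siELOVL5 minus control value.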

How the data were processed

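RNA sequencing reads (NextSeq 500, paired-end, 36 bases, per the labels' protocols) were deposited by the authors as 1 table of 57773 genes by 12 libraries. Its unit is a signal: read counts that the authors quantile-normalized, since every column holds 1 set of values and sums to 8.525 M. Aligner, annotation, build and use of strand: not given in the sources used here. Therefore overlapping, antisense and near-identical genes (AKR1C1 and AKR1C2, the ferritins, SKP1, GPX4, HLA and histone genes) are uncertain. Depth was estimated from ties among low values, and on simulated data the estimate was 0.986 to 1.01 times the true depth. A gene with no read could hold a normalized count of up to 0.917.

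Values were analysed as log2(value + 1), with a pseudocount of 1, in limma 3.58.1 and R 4.3.3. Genes at 1 or more in at least 3 of 12 libraries were tested (18648). All 4 groups were fitted by group means (8 residual degrees of freedom) with an intensity trend, and p-values were adjusted by Benjamini-Hochberg. The fit was also run on simulated counts that had the same spread setting for all genes. No simulated library stood apart and no replicate effect was put in, so that run does not bear on such features here. No count model was used.

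The comparison, the naming rule and the 35 lists (956 genes, 7 without a match in the table) were chosen with earlier results of these data known. Named were ELOVL2, ELOVL5, up to 12 genes each way with the largest fold among called genes whose groups did not overlap and whose mean was at or above the median level (93.8), up to 4 called members per list with the smallest adjusted p, and 2 members of a list with no call. Alternatives were pseudocounts of 0.5 and 10, other filters, no trend, robust moderation, library weights, rescaling, a replicate block, the 6 libraries alone and leaving out each library. Deviations of same-numbered siELOVL5 and siELOVL2 libraries correlated at 0.114, 0.031 and 0.077, and those with different numbers at -0.128 to 0.038. These values do not settle whether replicates were paired, and the labels do not say how they were separated. Pairing by number was therefore not established, and the main fit used no block. Promoter windows came from RefSeq (GRCh38.p14). A few genes are not reported here, by name or in the plots that label genes.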

Additional observations from a re-analysis of the deposited data

How the results depend on the processing

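The count of calls (562, with 272 higher and 290 lower in siELOVL5 cells) stayed within 1.5 times with pseudocounts of 0.5 (565) and 10 (571), no filter (506), a filter at 10 (727), robust moderation (562) and median-ratio rescaling (536). It was 213 without an intensity trend (111 higher, 102 lower), 1643 with library weights (740 higher, 903 lower) and 49 in the 6 libraries alone (26 higher, 23 lower), of which 48 were among the 562. Leaving out 1 library gave 165 to 707 calls, 90 to 348 higher and 75 to 359 lower. Blocking on the replicate number gave 1317 calls (603 higher, 714 lower), which included all 562, and in the 6 libraries alone with the block it was 3 (1 higher, 2 lower). That last fit left ELOVL2 at 3.12 with an adjusted p of 0.0933. Pairing by number was not established. siELOVL5 replicates 1 and 3 correlated best with the siELOVL2 library of their own number (0.114 and 0.077), and replicate 2 correlated at 0.031 with its own number and 0.038 with siELOVL2 replicate 3. FADS2 and the summed elongase and desaturase list were lowest in replicate 1 and highest in replicate 3 of all 4 groups. The summed interferon-stimulated list was lowest in replicate 2 of all 4 groups. These are hints from the data and not the design. The block on 12 libraries called 36 interferon-stimulated and 11 matrix genes, all higher, with 14 NRF2 genes lower and 1 higher and 11 heme and iron genes lower and 2 higher. In the 6 libraries alone with the block these lists had 0, 0, 1 and 1 calls. ELOVL5 kept its call in every fit and ELOVL2 in every other fit, and leaving out 1 library moved them between -3.86 and -3.67 and between 2.92 and 3.34. No named gene's difference between siELOVL5 and siELOVL2 cells changed sign while called. The cause of these differences between fits was not tested. Depth of 6.70 to 10.7 M reads limits genes of a few reads, such as HEPH, IFNB1 and PTPRC.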

Other observations

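Several gene groups of lipid storage, sterol synthesis, protein folding and cell division gave no call by limma between siELOVL5 and siELOVL2 cells. Over all 18648 tested genes, 3.01% were called and 3201 had an unadjusted p under 0.05. Of 28 cholesterol genes none was called, 2 had an unadjusted p under 0.05, and the median difference was 0.11. That median was -0.21 without siELOVL5 replicate 3, -0.08 with library weights, 0.03 without siELOVL2 replicate 1, 0.20 without siELOVL2 replicate 3 and 0.29 without siELOVL5 replicate 1. The list summed to 49926 normalized counts in siELOVL5 replicate 3 and to 26782 to 34643 in the other 11 libraries. Of its genes, SCAP, which escorts the sterol-sensing factors, held 409, 423 and 409 in siELOVL5 cells and 485, 546 and 474 in siELOVL2 cells (adjusted p = 0.0929). ABCA1, the cholesterol exporter, held 7230.5, 7685 and 8039.6 in siELOVL5 cells and 6787, 6447 and 4788 in siELOVL2 cells (adjusted p = 0.183). Of 15 genes of de novo fatty acid synthesis none was called and 3 had an unadjusted p under 0.05 (median -0.15), while 2 were called lower without siELOVL5 replicate 3. The median was -0.41 without that library, -0.27 without siELOVL2 replicate 1, 0.00 without siELOVL2 replicate 3 and 0.08 without siELOVL5 replicate 1. ELOVL6, an elongase of saturated chains, held 834, 937 and 994 in siELOVL5 cells and 1126, 1327 and 1547 in siELOVL2 cells (adjusted p = 0.0851), and ACSL3, an acyl-CoA synthetase, held 1343, 1385 and 1767 in siELOVL5 cells and 1649.6, 1856 and 1953 in siELOVL2 cells (adjusted p = 0.174). Of 22 lipid droplet genes none was called and 1 had an unadjusted p under 0.05 (median -0.03), with 1 call without siELOVL5 replicate 3 (lower) or double-knockdown replicate 3 (higher). PLIN2, a coat protein of lipid droplets, held 4769, 5038 and 6139 in siELOVL5 cells, 4039.6, 3846 and 3958 in siELOVL2 cells, 3586, 3471 and 4432 in the double knockdown and 5480.2, 4754 and 4967 in control cells, with no overlap of the first pair of groups (difference 0.42, adjusted p = 0.059). G0S2, an inhibitor of triglyceride lipase, held 81.4, 60.3 and 114 in siELOVL5 cells and 86.7, 37.5 and 33.6 in siELOVL2 cells (adjusted p = 0.331).

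Of 20 genes of MHC class I presentation none was called and 5 had an unadjusted p under 0.05 (median 0.12, with 0.04 without siELOVL5 replicate 1 and 0.18 without siELOVL5 replicate 2), while 2 were called higher without siELOVL5 replicate 2. HLA-F held 294, 238 and 345 in siELOVL5 cells and 218, 191 and 211 in siELOVL2 cells (adjusted p = 0.0774), and TAPBP, the peptide-loading protein tapasin, held 3366, 3126 and 3352 in siELOVL5 cells and 2788, 2881 and 2788 in siELOVL2 cells (adjusted p = 0.0906). Of 24 genes of the unfolded protein response none was called and 3 had an unadjusted p under 0.05 (median 0.10, and 0.02 without siELOVL5 replicate 3). HERPUD1, a member of the degradation complex of the endoplasmic reticulum, held 677, 635 and 1093 in siELOVL5 cells and 605, 588 and 547 in siELOVL2 cells (adjusted p = 0.181), and SEC61B of the translocon held 472, 494 and 488 in siELOVL5 cells and 533, 582 and 658 in siELOVL2 cells (adjusted p = 0.178). Of 43 mitosis and G2/M genes none was called and 2 had an unadjusted p under 0.05 (median -0.01, with -0.24 without siELOVL5 replicate 1 and 0.32 without siELOVL5 replicate 3), while 1 was called without siELOVL5 replicate 2 (lower) or replicate 3 (higher). CDC25B, a phosphatase that activates mitotic kinase, held 1261, 1351 and 1000.5 in siELOVL5 cells and 1468, 1698 and 1770.0 in siELOVL2 cells (adjusted p = 0.0525), and ASPM, a spindle pole protein, held 4432, 4918 and 2803 in siELOVL5 cells and 4617, 5879.8 and 5809 in siELOVL2 cells (adjusted p = 0.201). Of 34 histone genes none was called and 2 had an unadjusted p under 0.05 (median -0.03), while 2 were called higher without siELOVL5 replicate 3. HIST1H2BK held 879, 858 and 752 in siELOVL5 cells and 1085, 1030.4 and 946 in siELOVL2 cells (adjusted p = 0.103), and HIST1H3A held 294, 279.5 and 171 in siELOVL5 cells and 168, 218 and 152 in siELOVL2 cells (adjusted p = 0.275). None of 23 kidney, 10 leukocyte, 8 endothelial and 8 fibroblast and pericyte genes was called, and 3, 1, 3 and 2 of them had an unadjusted p under 0.05. In fits without 1 library, 1 kidney gene was called without double-knockdown replicate 3 and 1 fibroblast gene without siELOVL5 replicate 2.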
